A study of Homo sapiens with 16 samples.

Results

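The genes described here were 7 delta protocadherins, PCDH1, PCDH7, PCDH9, PCDH10, PCDH17, PCDH18 and PCDH19, out of the 66023 genes in a count table of RNA-seq from SW480 cells. They were found by their gene symbols. PCDH19 had been chosen by its measured fall in both Ajuba knockdown lines, so its levels in those lines and in their shScrambled control are given as a description and carry no test. The other members were listed with it as family members, with earlier results of these data known.

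Protocadherins are single-pass membrane proteins of the cadherin superfamily. The delta group is scattered over several chromosomes, unlike the clustered protocadherins, and falls into delta1 members (PCDH1, PCDH7 and PCDH9 here), with a longer ectodomain and a cytoplasmic motif that binds protein phosphatase 1, and delta2 members (PCDH10, PCDH17, PCDH18 and PCDH19 here), several of which recruit the actin-regulating WAVE complex. They mediate weak homophilic adhesion and cell sorting and are best known from the nervous system, where mutations of PCDH19 cause an epilepsy that mainly affects heterozygous females. In epithelia PCDH1 is the member best known at cell contacts, and several of the others are known to be silenced in tumors of the gut.

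SW480 is an established human colorectal adenocarcinoma line. The study compared 6 lines of it in 16 samples, to ask how the level of AJUBA, a LIM-domain scaffold protein of cell junctions that also acts as a co-repressor of Snail, changes the transcriptome. Parental cells (n = 2) were not transduced. The line shScrambled (n = 2) carried a pLKO.1-puro lentivirus with a hairpin that matches no mammalian gene, shAjuba1 (n = 3) a hairpin against the coding region of AJUBA, and shAjuba2 (n = 3) a hairpin against its non-coding region. Ajuba OE (n = 3) carried a lentivirus that expresses FLAG-HA-tagged Ajuba from the CMV promoter with puromycin resistance behind an IRES, and Control (n = 3) the same construct with the Ajuba sequence cut out. The 5 transduced lines were selected in puromycin, and each condition was 1 transduced line. The paper calls the replicates technical, so p-values measure the spread between such samples and not between independent transductions.

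Total counts ran from 30132396 to 69684675 per sample, and replicate counts of a line varied 1.87 to 14.3 times as much as sampling alone would give over 14 pairs. Levels are given as RPM, the count of a gene per 1000000 counts of the sample, as mean ± SD. AJUBA itself averaged 90.2 ± 2.00 RPM in Parental cells and 82.5 ± 1.26 with the scrambled hairpin, and the knockdown lines held 50.1 ± 3.12 (shAjuba1) and 62.0 ± 5.93 (shAjuba2). The empty-construct Control had 93.2 ± 6.35 RPM, and Ajuba OE stood highest at 526 ± 56.1. Lines were compared with the quasi-likelihood test of edgeR, with p-values adjusted over all genes kept by the method of Benjamini and Hochberg. Against shScrambled, AJUBA changed by -0.73 on the log2 scale in shAjuba1 (adjusted p = 2.19e-05 by edgeR), while the shAjuba2 value was -0.46 (adjusted p = 0.0773). In Ajuba OE against Control it was 2.56 (adjusted p = 7.69e-05 by edgeR). The fall in shAjuba2 therefore did not pass the threshold of 0.05. Of 9 colon epithelium markers, 6 had a mean of at least 1 RPM (EPCAM, KRT8, KRT18, CDX2, VIL1 and CDH1), while KRT20, CDH17 and LGALS4 were lower. Neuron markers were partly present: SYT1, TUBB3 and SNAP25 passed 1 RPM, whereas ELAVL4 reached at most 0.0276 RPM and STMN2 at most 0.0996 RPM.

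The promoters of PCDH19, PCDH9 and PCDH7 are printed because the first pair was lower and PCDH7 higher in the knockdown lines. They come from RefSeq on GRCh38.p14 and read 5′ to 3′ on the strand of the gene, ending just before its start, with CG dinucleotides, the sites that can be methylated, in capitals. The PCDH19 stretch is chrX:100410274-100410523, minus strand, PCDH9 is chr13:67230446-67230586, minus strand, shortened to lie outside the annotated gene, and PCDH7 is chr4:30720119-30720368, plus strand.
PCDH19 promoter: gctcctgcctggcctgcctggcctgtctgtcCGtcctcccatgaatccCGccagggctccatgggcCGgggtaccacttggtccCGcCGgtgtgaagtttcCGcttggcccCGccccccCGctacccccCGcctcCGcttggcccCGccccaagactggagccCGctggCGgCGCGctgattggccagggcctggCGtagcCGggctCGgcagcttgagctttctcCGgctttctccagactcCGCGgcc
PCDH9 promoter: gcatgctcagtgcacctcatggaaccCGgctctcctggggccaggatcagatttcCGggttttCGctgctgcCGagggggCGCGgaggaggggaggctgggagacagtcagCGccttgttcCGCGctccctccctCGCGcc
PCDH7 promoter: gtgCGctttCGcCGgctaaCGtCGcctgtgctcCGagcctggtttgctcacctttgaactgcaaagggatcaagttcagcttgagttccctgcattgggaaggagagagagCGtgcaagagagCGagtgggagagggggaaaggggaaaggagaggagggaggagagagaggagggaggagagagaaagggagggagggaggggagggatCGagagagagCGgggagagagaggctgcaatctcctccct
The 250 bases before the start of PCDH19 hold 21 CG, a number that 30.2% of 35116 promoters of that length reach, and the median promoter holds 11. The full PCDH9 window holds 20, PCDH7 and PCDH17 hold 10 each, PCDH18 holds 8 and PCDH1 holds 6. The PCDH1 window (chr5:141869628-141869877, minus strand) precedes the RefSeq start but lies inside the gene as GENCODE annotates it, so it is not the stretch before the outermost start of that gene. On either strand, the CCAAT box (CCAAT or ATTGG) occurred once in 5 of the 6 windows, all but that of PCDH1, against 32.0% of all promoters. The E-box CAGGTG (or CACCTG), the motif bound by Snail and Zeb proteins, occurred once in PCDH1 and in no other member's window, against 17.5% of all promoters. The TATA box (TATAAA or TTTATA) was found in none of the 6, against 10.7% of all promoters. These matches describe letters only, and methylation was not measured here. PCDH10 was not among the promoters used.

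PCDH19 (ENSG00000165194) lies on chromosome X from 100291644 to 100410273 on the minus strand of hg38 and overlaps no other gene of the annotation. In Parental cells it was measured at 4.84 and 4.22 RPM, from 194 and 226 counts. The shScrambled samples, at 13.3 and 11.7 RPM (484 and 587 counts), both lay above Parental. The pooled shScrambled level was 2.75 times that of Parental, which is a description, since PCDH19 was chosen by its fall against these shScrambled samples. In shAjuba1 the values were 1.61, 1.76 and 1.68 RPM, from 77, 53 and 61 counts. Those of shAjuba2 were 0.258, 0.180 and 0.185 RPM, from 12, 8 and 9 counts. Every knockdown sample was therefore below every shScrambled and every Parental sample. Control held 0.146, 0.326 and 0.364 RPM, from 5, 16 and 16 counts. Ajuba OE held 0.0144, 0.0208 and 0.0251 RPM, which was a single count in each of the 3 samples. In bulk RNA, fewer cells that express a gene and less RNA per cell cannot be told apart.

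**Figure D1:**
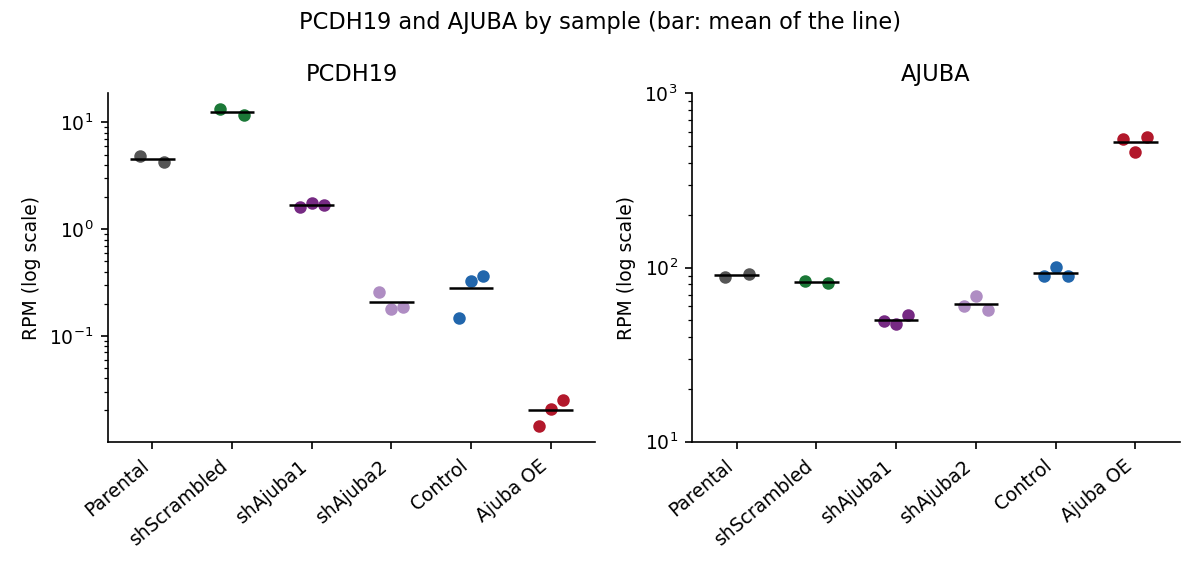
Level of PCDH19 (left) and of AJUBA (right) in each of the 16 samples, in RPM on log axes, with a point per sample and a bar at the mean of the line. PCDH19 is highest in shScrambled (12.5 RPM), lies below Parental in both knockdown lines and in Control, and is lowest in Ajuba OE, the line in which AJUBA is highest (526 RPM).

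In order of their means, shScrambled (12.5 ± 1.14 RPM) stood above Parental (4.53 ± 0.438), then shAjuba1 (1.69 ± 0.0735), Control (0.279 ± 0.117), shAjuba2 (0.208 ± 0.0435) and Ajuba OE (0.0201 ± 0.00543). The steps were 2.76-fold, 2.69-fold, 6.04-fold, 1.34-fold and 10.3-fold. Samples of neighbouring lines did not overlap except those of Control and shAjuba2. Their means differed by less than the SD of Control and by more than that of shAjuba2. PCDH19 was thus below Parental in lines with less AJUBA mRNA (shAjuba1, shAjuba2), with AJUBA samples that overlapped Parental (Control) and with more AJUBA (Ajuba OE). Fitted against shScrambled, PCDH19 stood at -2.90 on the log2 scale with the first hairpin (shAjuba1) and at -5.94 with shAjuba2. These comparisons share the same 2 shScrambled samples. Against Parental in place of shScrambled, the values were -1.45 and -4.49. The lower PCDH19 level stood in shAjuba2, whose AJUBA level was the higher of the 2 knockdown lines in every sample. That AJUBA difference did not pass (log2 fold change -0.26 in shAjuba1 against shAjuba2, adjusted p = 0.141 by edgeR). The part of AJUBA in the PCDH19 level was not tested.

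PCDH19 could be tested where the samples that chose it were not used, except that the alternative fits on all 16 samples included them. In Control against Parental its log2 fold change was -3.95 (SE 0.268, adjusted p = 0.00256 by edgeR), and each of the 3 Control samples lay below both Parental samples. The pooled counts, 37 against 420, gave a 15.4-fold higher level in Parental (exact 95% interval 11.0 to 22.2, for counting error only, as are all such intervals here). Few genes were called here: 0.37% of 21644 genes tested, 80 in all with 69 lower in Control, and PCDH19 was number 7 of them by adjusted p. Control replicates varied 4.39 to 11.4 times as much as sampling alone would give, and Parental had 2 samples. A low share therefore does not show that the lines were alike. AJUBA did not pass in this comparison (log2 fold change 0.06, adjusted p = 0.777). The call of PCDH19 held in all 11 alternatives, with log2 fold changes from -4.18 to -3.70 and adjusted p from 9.33e-50 to 0.0247.

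In Ajuba OE against Control, PCDH19 had too few counts to pass the filter of the main test. The pooled 3 counts in Ajuba OE and 37 in Control gave a level 15.3-fold higher in Control (exact 95% interval 4.83 to 77.3), and each Ajuba OE sample lay below each Control sample. Fits that kept the gene gave a log2 fold change of -3.66 (edgeR on all 16 samples, adjusted p = 6.33e-05), -3.64 (edgeR on every gene with at least 1 count, adjusted p = 0.00275) and -3.76 (DESeq2, adjusted p = 0.00887). The fit on all 16 samples included the samples that chose PCDH19 and kept the gene through lines where the gene was higher. With 1 sample left out, the gene was kept in 4 of 6 fits, each time through the Control samples, where it was the higher, so that a lower value in Ajuba OE was favoured before the test. Its adjusted p by edgeR was then 0.0117 without Control replicate 1 and 0.0326 without Ajuba OE replicate 2, but 0.0694 without Ajuba OE replicate 1 and 0.0539 without Ajuba OE replicate 3.

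PCDH9 (ENSG00000184226, chromosome 13, 66302834 to 67230445, minus strand), a delta1 member with broad expression in brain, had by its means the same 3 highest lines in the same order as PCDH19, shScrambled, Parental and shAjuba1, at a far lower level. That order is a description: against Parental, neither shScrambled (adjusted p = 0.232 by edgeR) nor shAjuba1 (adjusted p = 0.270) passed. Parental held 0.449 and 0.299 RPM and shScrambled 0.466 and 0.616 RPM, from 16 to 31 counts per sample. In shAjuba1 it was at 0.293, 0.199 and 0.248 RPM, below both of those lines in each sample. The shAjuba2 samples had 2, 5 and 0 counts (0.0430, 0.113 and 0 RPM), where 0 counts allow up to 0.0617 RPM. Control had 0, 3 and 2 counts and Ajuba OE 1, 2 and 1, so these 3 lines overlapped. Their means of 0.0519, 0.0356 and 0.0271 RPM cannot be ranked at this depth. Against shScrambled the log2 fold change of PCDH9 was -1.12 in shAjuba1 (SE 0.342, adjusted p = 0.0202 by edgeR) and -3.42 in shAjuba2 (SE 0.659, adjusted p = 0.0236). PCDH9 passed the filter of both comparisons through shScrambled, where it was high, so a lower knockdown value was favoured before the test. In shAjuba1 the call was lost with DESeq2 (adjusted p = 0.170) and with edgeR on all 16 samples (adjusted p = 0.110). In Control against Parental the value was -3.13 (SE 0.614), which missed the threshold (adjusted p = 0.0874 by edgeR). There PCDH9 passed the filter through Parental, where it was high, so a lower Control value was favoured before the test. Across the 16 samples, log2(RPM + 1) of PCDH9 had a Pearson r of 0.96 and a Spearman rho of 0.895 with PCDH19, as a description of samples that share 6 lines.

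PCDH7 (ENSG00000169851, chromosome 4, 30720369 to 31146805, plus strand), a delta1 member known to bind protein phosphatase 1 and SET, moved the other way in the knockdown lines. Its counts were 8 and 9 in Parental and 4 and 2 in shScrambled, or 0.199, 0.168, 0.110 and 0.0397 RPM. They were 15, 8 and 14 in shAjuba1 (0.314, 0.266 and 0.386 RPM) and 28, 19 and 35 in shAjuba2 (0.602, 0.428 and 0.720 RPM). Every shAjuba2 sample was above every shAjuba1 sample, and every shAjuba1 sample above the untargeted lines. Against shScrambled its log2 fold change was 2.16 in shAjuba1 (SE 0.550, adjusted p = 0.00784 by edgeR, but 0.0567 by DESeq2) and 2.97 in shAjuba2 (SE 0.512, adjusted p = 0.0164 by edgeR). Since shScrambled was near its floor, PCDH7 passed the filter through the lines in which it was high and had to differ. Control held 1, 3 and 5 counts and Ajuba OE 2, 1 and 0. The pooled ratio of Control to Ajuba OE was 3.71, with an exact 95% interval of 0.926 to 21.3 that includes no difference. Unlike PCDH9, PCDH7 did not track PCDH19 over the samples (Pearson r -0.12, Spearman rho 0.294).

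PCDH1 (ENSG00000156453, chromosome 5, 141853090 to 141879246, minus strand), the epithelial member, was the one delta protocadherin with substantial expression in each line. Per kilobase of exon its mean level was 4.87 RPKM over all samples, against 0.260 for PCDH19, 0.0169 for PCDH7 and 0.00589 for PCDH9. It stood at 32.3 and 32.3 RPM in Parental and 27.9 and 28.5 in shScrambled. The shAjuba1 samples held 33.0, 30.1 and 35.0 RPM and the shAjuba2 samples 36.0, 30.4 and 31.9 RPM, which overlapped. All 6 were above shScrambled, yet the log2 fold changes of 0.20 (SE 0.0936, adjusted p = 0.114 by edgeR) and 0.17 (SE 0.121, adjusted p = 0.424) did not pass. Control was at 27.9, 28.03 and 28.2 RPM and Ajuba OE at 20.7, 19.3 and 20.1 RPM, with no overlap. PCDH1 thus fell in Ajuba OE (log2 fold change -0.42, SE 0.0849, adjusted p = 0.0308 by edgeR). The direction held in all 13 alternatives, but leaving out any 1 of the 6 samples ended the call, with adjusted p between 0.0749 and 0.166 by edgeR.

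**Figure D2:**
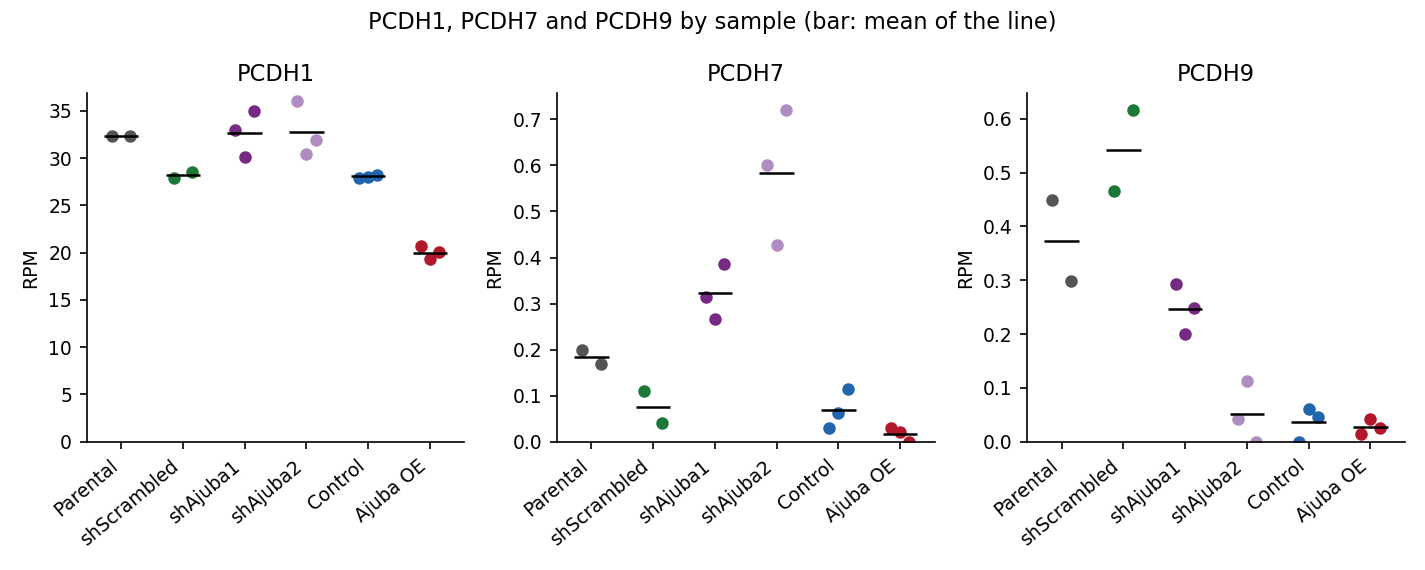
Level of PCDH1, PCDH7 and PCDH9 in each of the 16 samples, in RPM on linear axes that start at 0, with a point per sample and a bar at the mean of the line. PCDH1 is lowest in Ajuba OE (19.3 to 20.7 RPM), PCDH7 is highest in shAjuba2 (0.583 RPM), and PCDH9 is highest in shScrambled (0.541 RPM) and near 0 in shAjuba2, Control and Ajuba OE.

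The 3 remaining members were at or near 0. PCDH10 (ENSG00000138650, chromosome 4, 133149294 to 133208606), a delta2 member known as a tumor suppressor that is methylated in gut cancers, had 0 counts in all 16 samples, which allows up to 0.00417 RPM over the series. PCDH17 (ENSG00000118946, chromosome 13, 57631744 to 57729311) had 4 counts in all, 3 of them in shAjuba2. PCDH18 (ENSG00000189184, chromosome 4, 137518918 to 137532494) had 3 counts in all, in 3 samples. No difference between lines was detectable for these genes at this depth, and none passed the filter in any comparison.

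Counted by comparison, 4 of the 7 members passed the filter in shAjuba1 against shScrambled, and of the 3 that could be tested 2 were called by edgeR, PCDH7 higher and PCDH9 lower, and 0 by DESeq2. Of all 21082 genes in that comparison 38.4% were called, 18.2% higher and 20.2% lower. In shAjuba2 against shScrambled the same number passed, and 2 of 3 were called, again PCDH7 higher and PCDH9 lower, against 7.63% of 22446 genes, 3.19% higher and 4.44% lower. For the overexpression line against Control 1 of 7 passed, PCDH1, and it was called, against 5.43% of 21140 genes (2.39% higher, the other 3.03% lower). With 1 to 3 genes tested, and with members that passed through the line in which they were high, these counts do not set the family apart from other genes. The median log2 fold change of all genes was within 0.04 of 0 in every comparison.

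**Figure D3:**
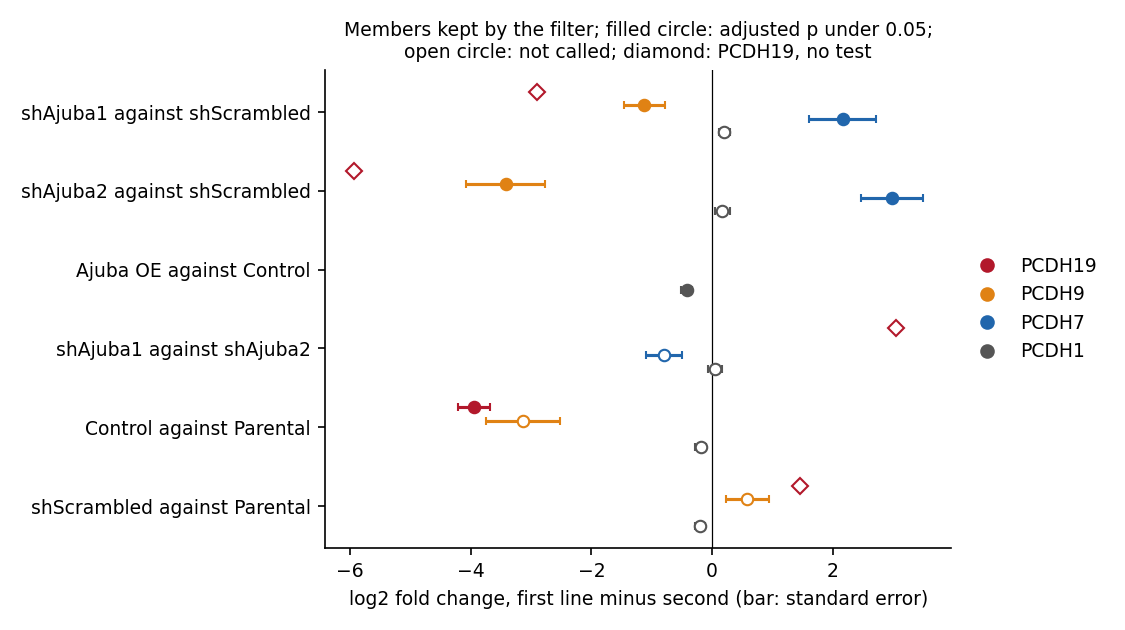
Fitted log2 fold change (x axis) of each member that passed the filter in the 6 comparisons of lines (y axis), with the standard error as a bar. Filled circles passed an adjusted p of 0.05, open circles did not, and diamonds mark PCDH19 where it has no test: it stands at -2.90 and -5.94 in the knockdown lines, while PCDH7 stands at 2.16 and 2.97.

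The calls of PCDH7 and PCDH9 did not all hold with 1 sample left out, though their directions did wherever the gene was kept. Leaving out an shScrambled sample left 1 in that line, and most calls were lost in those fits. Without shScrambled replicate 2 the log2 fold changes of PCDH7 and PCDH9 were 1.51 and -0.90 in shAjuba1. In shAjuba2 they were 2.33 and -3.19. Without shScrambled replicate 1 they were 2.94 and -1.27 in shAjuba1, and 3.75 and -3.585 in shAjuba2. Without shAjuba2 replicate 1 neither was called in shAjuba2, at 2.97 (adjusted p = 0.0656 by edgeR) and -3.29 (adjusted p = 0.104). The PCDH9 call in shAjuba1 was lost without shAjuba1 replicate 2 (adjusted p = 0.0506 by edgeR). PCDH7 did not pass the filter without shAjuba1 replicate 1. With Parental as the control, PCDH7 was called in shAjuba2 (log2 fold change 1.61, adjusted p = 0.0452 by edgeR) but not in shAjuba1 (0.79, adjusted p = 0.141), and PCDH9 in neither (-2.86, adjusted p = 0.0526, and -0.56, adjusted p = 0.270). The summed level of 7 blood and endothelium markers was 6.25 to 6.42 RPM in shScrambled, against 3.04 to 4.03 in shAjuba1, 3.81 to 4.80 in shAjuba2 and 3.21 to 3.22 in Parental. VWF carried most of that sum, with 1.89 to 5.29 RPM over the 16 samples, and CD68 reached 1.51 RPM, while PTPRC reached at most 0.0645 RPM and CDH5 at most 0.0291 RPM. The part of these markers in the result was not tested.

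Between the knockdown lines, 4232 of 21600 genes (19.6%) were called, and neither tested member was by edgeR, 1 of them at an unadjusted p under 0.05. PCDH7 had a log2 fold change of -0.80 in shAjuba1 against shAjuba2 (SE 0.301, adjusted p = 0.0902 by edgeR), and PCDH1 one of 0.05 (SE 0.113, adjusted p = 0.808). DESeq2 called PCDH9, which the filter of the main test had not kept (log2 fold change 2.34, adjusted p = 0.0494). PCDH19 was higher in shAjuba1 by 3.05 on the log2 scale. In shScrambled against Parental 30.7% of 21289 genes were called, and neither tested member was by edgeR or DESeq2, 1 of them at an unadjusted p under 0.05. PCDH9 stood at 0.58 (SE 0.361, adjusted p = 0.232 by edgeR) and PCDH1 at -0.20 (SE 0.0833, adjusted p = 0.0683).

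Among relatives, the 3 further delta protocadherins on the list, PCDH8, PCDH11X and PCDH11Y, passed the filter in none of the comparisons with a control, and the highest value of PCDH8 was 0.115 RPM. Of 14 other non-clustered protocadherins and protocadherin-like genes 9 could be tested. In shAjuba1 4 rose (DCHS1, FAT1, PCDH12 and FAT2) and 2 fell (DCHS2 and CDHR2), with a median log2 fold change of 0.04, where 38.4% of all genes were called. In shAjuba2 1 rose (FAT1) and 2 fell (DCHS2 and CDHR2), with a median of 0.06, where 7.63% of all genes were called. In Ajuba OE 1 fell (DCHS2), with a median of -0.35, where 5.43% of all genes were called, and DESeq2 called none of the list. DCHS2, a large dachsous cadherin, had log2 fold changes of -4.31 (adjusted p = 7.09e-08 by edgeR), -2.01 (0.00682) and -2.04 (0.0368) in shAjuba1, shAjuba2 and Ajuba OE against their controls. Its level ran from 0.0417 to 2.84 RPM over the 16 samples, the lowest value below the floor. A gene this low can pass the filter through the line in which it is higher, so that a fall is favoured before the test. CDHR2, a protocadherin of the intestinal brush border, had -1.52 (adjusted p = 1.14e-05 by edgeR) and -1.49 (0.0131) in the knockdown lines. In Ajuba OE it stood at -0.41 (adjusted p = 0.386 by edgeR). PCDH12 and FAT2 rose in shAjuba1 alone among the 3 by 0.65 and 0.66 on the log2 scale (adjusted p = 0.00774 and 0.00268 by edgeR), and whether they differed between lines was not tested.

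Of the 11 genes of the WAVE complex, through which delta2 members reach actin, 9 were tested in shAjuba1, where 1 rose (WASF1) and 3 fell (CYFIP2, ABI1 and WASF3), with a median log2 fold change of -0.09. That number is read against the 38.4% of all genes called there, and is near it. CYFIP2, the subunit related to CYFIP1, fell by 0.81 on the log2 scale (adjusted p = 4.62e-05 by edgeR), and WASF1 rose by 0.58 (adjusted p = 0.000287). In shAjuba2, where 7.63% of all genes were called, none of 10 was called by edgeR or by DESeq2. Of these, 4 had an unadjusted p under 0.05, and the median was -0.16. In Ajuba OE, where 5.43% of all genes were called, 1 of 9 was called, with a median of 0.13. WASF3 rose there by 0.74 on the log2 scale (adjusted p = 0.00426 by edgeR). In shAjuba1 it had fallen by 0.46 (adjusted p = 0.000938 by edgeR). Of 11 other reported partners of delta protocadherins 8 were tested, and 2 of them were called in shAjuba1, against the 38.4% of all genes. SMAD3, a transducer of TGF-beta signals, rose by 0.92 in shAjuba1 (adjusted p = 5.19e-06 by edgeR), and FZD7, a Wnt receptor, had -0.61 there (adjusted p = 0.000328) and -0.50 in Ajuba OE (adjusted p = 0.0430), a call DESeq2 did not make. FZD7 was the 1 of the 8 called in Ajuba OE, where 5.43% of all genes were called. None of the 8 was called in shAjuba2 by edgeR or DESeq2, where 7.63% of all genes were called, and 0 had an unadjusted p under 0.05. The medians of the 8 were -0.03, -0.12 and 0.06 in shAjuba1, shAjuba2 and Ajuba OE. CDH2, the classical cadherin that pairs with PCDH19 in neurons, reached at most 0.0625 RPM.

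The pattern of PCDH19 over the samples was shared most closely, of 14552 genes with a mean of at least 1 RPM, by PHYHIPL (Pearson r of log2(RPM + 1) over 16 samples 0.990), RASSF6 (0.985), COLCA1 (0.980), IL31RA (0.977) and POU2AF1 (0.953). All 5 were highest in shScrambled, followed by Parental and then shAjuba1, as PCDH19 was. In Parental they stood at 43.9% to 69.7% of their shScrambled mean, against 36.3% for PCDH19. In shAjuba1 they stood at 8.82% to 37.5%, against 13.5%. In shAjuba2 the range was 2.21% to 7.38%, against 1.67%, and in Control 2.80% to 9.70%, against 2.24%. They parted in Ajuba OE, where PHYHIPL had 0 RPM in all 3 samples and POU2AF1, at 13.9% of shScrambled, was above its mean in Control. These genes were picked for their likeness, so the shared shape is no finding.

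**Figure D4:**
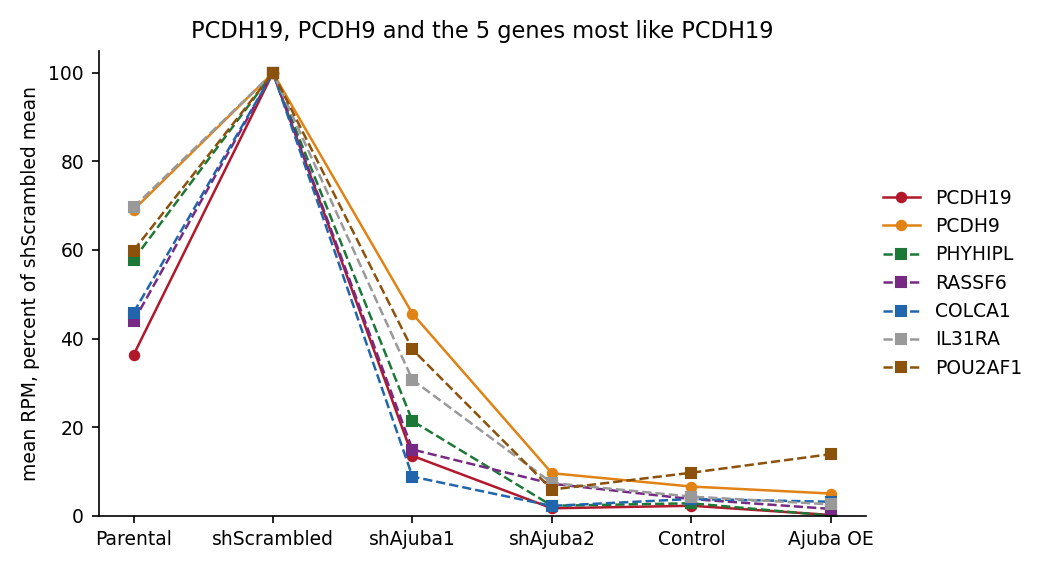
Mean RPM of each line as a percent of the shScrambled mean of the same gene (y axis, linear from 0) for PCDH19, PCDH9 and the 5 genes with the highest correlation with PCDH19. All fall from shScrambled to shAjuba2, where PCDH19 is at 1.67% and PCDH9 at 9.59%, and only POU2AF1 of the 7 is higher in Ajuba OE than in Control.

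The neighbours of PCDH19 on chromosome X were examined for shifts of the same size. Within 1 Mb lay 19 protein-coding genes of the table, all on the higher-coordinate side, and 15 were tested. In Control against Parental none was called by edgeR or DESeq2, with 3 at an unadjusted p under 0.05 and log2 fold changes from -0.34 to 1.01, where PCDH19 had -3.95. Only 0.37% of all genes were called there, so no call among 15 genes is what that share would give. In Ajuba OE against Control none was called either, where 5.43% of all genes were, with 2 at an unadjusted p under 0.05 and a range of -0.60 to 0.40. In shAjuba1 against shScrambled 2 rose and 7 fell, from -1.39 (SRPX2) to 1.53 (DRP2), and in shAjuba2 1 rose and 3 fell, from -1.77 (SRPX2) to 1.95 (TAF7L), where 38.4% and 7.63% of all genes were called. The shared control had itself moved: in shScrambled against Parental 2 neighbours were higher and 5 lower, up to 2.40 (SRPX2, adjusted p = 4.53e-05 by edgeR). Of all genes, 30.7% were called there. SRPX2 stood at 0.174 RPM in Parental, 0.940 in shScrambled, 0.371 in shAjuba1 and 0.280 in shAjuba2, so both knockdown lines lay above Parental. SYTL4, 261.5 kb away, fell by 1.05 and 0.75 on the log2 scale in these lines (adjusted p = 9.77e-06 and 0.0415 by edgeR). TSPAN6, at 216.8 kb the nearest neighbour above 1 RPM, had 0.20 and 0.36 (adjusted p = 0.182 and 0.372 by edgeR). No tested neighbour had a log2 fold change as low as that of PCDH19 in the knockdown lines or in Control against Parental. In the knockdown lines PCDH19 was chosen by its fall, so this contrast carries no weight there.

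**Figure D5:**
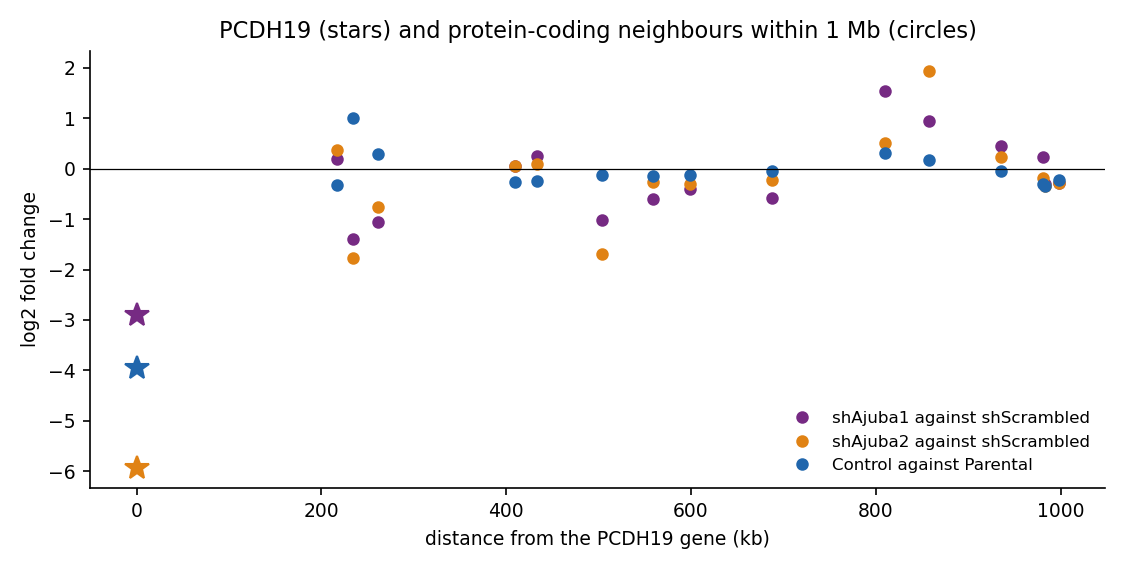
Fitted log2 fold change (y axis) of PCDH19 (stars, at 0) and of the 15 tested protein-coding neighbours (circles) against their distance from PCDH19 in kb (x axis), in the knockdown lines against shScrambled and in Control against Parental. PCDH19 lies between -5.94 and -2.90, and the neighbours lie between -1.77 and 1.95.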

How the data were processed

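Polyadenylated RNA of 16 SW480 samples was sequenced as 50-base paired-end stranded reads. The authors aligned them to GRCh38 with HISAT2 and counted reads per gene with featureCounts, and they deposited raw counts. Versions, annotation release and strand option are not given in the sources used here. PCDH7 and PCDH9 overlap antisense genes, each with at most 1 count in any sample where the table held them. Of 66023 identifiers, 56434 matched GENCODE release 44 (hg38).

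The members and lists were chosen with earlier results of these data known. RPM was the count over the sample total times 1000000, and RPKM divided it by merged exon length. Pairs of lines were compared in edgeR 4.0.16 (R 4.3.3): filterByExpr by line, TMM, the quasi-likelihood test, line as the only term, Benjamini-Hochberg adjustment over all genes kept, and a call at an adjusted p under 0.05. Fits were tested on simulated data. Intervals of counts were exact at 95%, and a floor was 3 counts. Both cover counting error only.

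Named genes were the members, AJUBA, at most 4 genes per list of relatives or partners by smallest adjusted p, genes called in a list, and the 5 genes most correlated with PCDH19. The neighbours, and the extreme ones among them, were chosen after their values were seen. Alternatives were other scaling, DESeq2 1.42.0, all 16 samples in 1 fit, no filter, the replicate number as a block, each sample left out, Parental as the control, and, chosen after seeing the data, Ajuba OE and Control without replicate 2 of either. Replicate numbers were not used to pair the samples in the main test. Correlations of same-numbered samples ran from -0.17 to 0.616, the highest between Ajuba OE and Control, so a shared shift there was left in the spread. The labels describe triplicates, but Parental and shScrambled had 2 samples.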

Additional observations from a re-analysis of the deposited data

How the results depend on the processing

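Of the members' fold changes with a test, 128 values under an alternative kept their direction and side of the threshold, 5 passed it newly, 23 no longer passed and 3 reversed. The reversed values were small log2 fold changes of PCDH1: -0.012 in shAjuba1 and -0.043 in shAjuba2 with Parental as the control (adjusted p = 0.926 and 0.814 by edgeR), and -0.0031 in shAjuba1 against shAjuba2 with library size alone (adjusted p = 0.990). Members called in shAjuba1 against shScrambled went from 2 to 0 with DESeq2 (PCDH7 adjusted p = 0.0567, PCDH9 0.170), 1 with all 16 samples and 0 with Parental as the control, and ranged from 0 to 2 with 1 sample left out. In shAjuba2 against shScrambled the 2 became 1 with Parental as the control and ranged from 0 to 2 with 1 sample left out. In Ajuba OE against Control the 1 became 2 (PCDH1 and PCDH19) with DESeq2 and with all 16 samples, and ranged from 0 to 1 with 1 sample left out. With every gene of at least 1 count it was PCDH19 in place of PCDH1 (adjusted p = 0.124 by edgeR). Between the knockdown lines the 0 became 1 with DESeq2, all 16 samples and every gene of at least 1 count, PCDH9 each time, and ranged from 0 to 2. In Control against Parental the 1 became 2 with all 16 samples, every gene of at least 1 count and the replicate block, and ranged from 1 to 2. In shScrambled against Parental it was 0 in each alternative. The cause of these changes was not tested.

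The replicate numbers are shared labels, and 4 of 6 samples of Ajuba OE and Control and 0 of 6 of the knockdown lines correlated best with their own number. With the replicate block, PCDH9 gained a call in Control against Parental (log2 fold change -3.24, adjusted p = 0.00934 by edgeR). It had passed the filter through Parental, so a lower Control value was favoured before the test. PCDH1 in Ajuba OE had an adjusted p of 0.000857 by edgeR with the block. No other call of a member changed under it. Without replicate 2 of both Ajuba OE and Control, PCDH1 had an adjusted p of 0.0323 by edgeR. On the scale of TMM-scaled CPM, PCDH1 moved past its SD in Parental (32.4), Control (27.9) and Ajuba OE (21.1). The 39 other levels did not move past theirs, but they include levels of 0, which rescaling cannot move.

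Depth limits PCDH7, PCDH9 and, in shAjuba2, Control and Ajuba OE, PCDH19, which rest on at most 35 counts per sample in these lines. Where a left-out sample leaves 1 in a line, it is assumed to vary like the other line. A line and its transduction cannot be told apart.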
